A study of Mus musculus with 60 samples.

Results

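The 5 cKOt kidneys and the 5 control kidneys collected at ZT4, 4 h after lights on, were compared by RNA sequencing. The 10 libraries were picked by their genotype and zeitgeber time labels from the 60 of the series, a series of 2 genotypes and 6 time points with 5 mice in each combination and 4 h between times. The cKOt mice were Bmal1lox/lox/Pax8-rtTA/LC1 males, in which doxycycline switches on a Cre recombinase that inactivates Bmal1 (the gene Arntl). The control mice were Bmal1lox/lox male littermates. Both groups were on the C57BL/6J background, drank doxycycline (DOX) for 2 weeks from 8 weeks of age, were housed under 12 h of light and 12 h of dark with free access to food and water, and were sampled 4 weeks after DOX ended. Both groups therefore carried the floxed alleles and had received the drug.

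The Pax8-rtTA transgene is active in the cells of the renal tubule, so vessels, glomeruli, stroma and immune cells of a cKOt kidney kept Bmal1. The labels call the tissue renal tubule, whereas the methods describe pieces of frozen kidney, and transcripts of podocytes, endothelium, stroma and macrophages were all present in the 10 libraries. In such bulk RNA, fewer cells of a type and less RNA per cell cannot be told apart. The study had reduced each group from 6 mice to 5, using RNA integrity and how far a mouse lay from its replicates in projections of the data. At ZT4 the control mouse left out had clustered with another time, and of 2 outlying cKOt mice 1 was kept arbitrarily, which is replicate 5 here.

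The circadian clock of a cell is a loop of transcription factors. BMAL1 pairs with CLOCK or NPAS2 at E-boxes and switches on the period and cryptochrome genes, whose proteins repress the pair, and the genes of the REV-ERB receptors, which silence Bmal1, Clock and Npas2 through sites that the ROR receptors share. The PAR bZIP factors DBP, TEF and HLF and their repressor NFIL3 pass the rhythm on through D-boxes. In the kidney the clock is known for daily rhythms of filtration, salt handling and fuel use.

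The libraries held 18013474 to 19373485 counts in genes, with medians of 18540610 in controls and 19075817 in cKOt mice, and no 2 libraries of a group were identical. Levels are given as CPM, counts set relative to the size of the library after scaling by the trimmed mean of M-values (TMM). They are not divided by transcript length, so they compare mice and not genes. Fold changes, standard errors (SE) and p-values come from the quasi-likelihood test of edgeR, with p-values adjusted by the Benjamini-Hochberg method over 15546 genes, fitted on all 60 libraries with 2 factors of unwanted variation (RUVs). These factors move a fitted fold change away from the plain ratio of CPM values. A gene is said to be called, to have risen or to have fallen where the adjusted p was below 0.05. The labels name each library as a replicate of its genotype and time. The p-values measure only the spread between mice within groups, estimated over all 60 libraries after the 2 RUVs factors, and not that of the ZT4 mice alone.

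The library of cKOt replicate 5 stood apart. Its first RUVs factor was 3.24 against -1.16 to 0.95 in the other 9, and on the first principal component, which held 37.6% of the variance, it lay at 54.1 where the other cKOt libraries lay between 8.03 and 23.6. It was above all 9 other libraries at 4573 genes, with a median transcript length of 3961 bases and a median GC content of 43.9%. It was below all 9 at 4456 genes, of 2855 bases and 55.4%, where all tested genes had medians of 3200.5 bases and 49.3%. Results are therefore given with and without this mouse where it mattered.

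**Figure D1:**
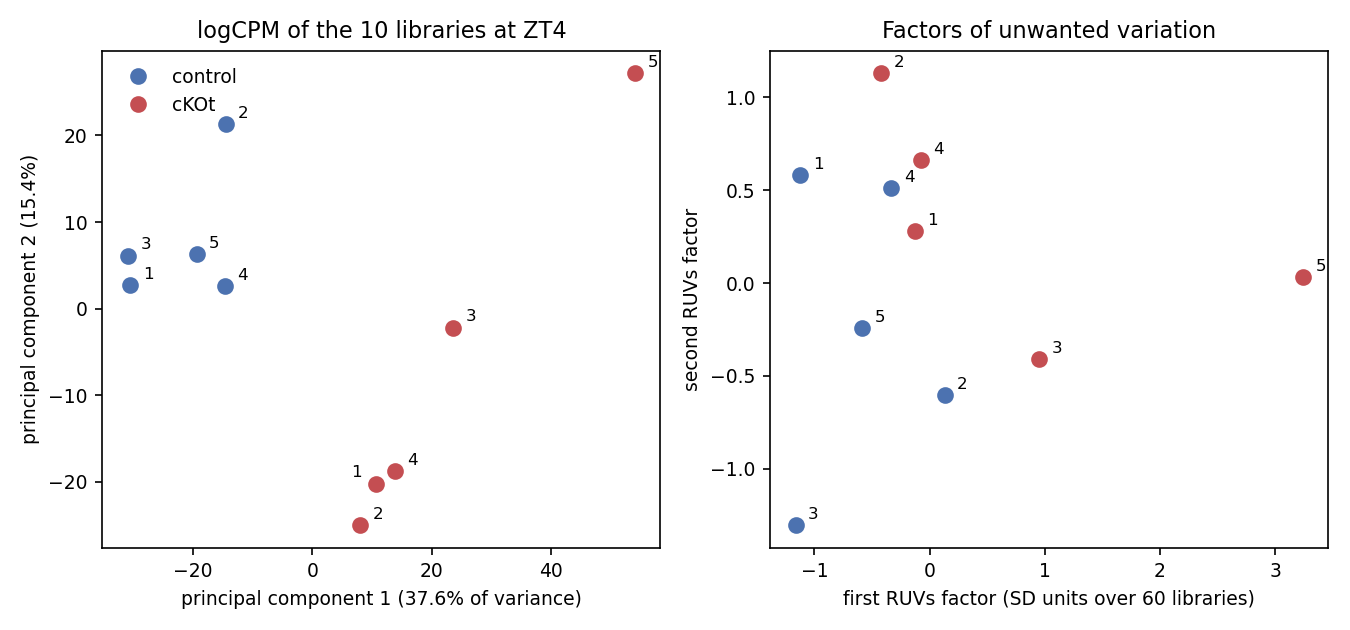
The 10 ZT4 libraries on their first principal components of log2 CPM (left, component 1 horizontal and 2 vertical) and by their RUVs factors in SD units (right, factor 1 horizontal and 2 vertical), with control and cKOt libraries in blue and red and the replicate numbers beside the points. The cKOt library of replicate 5 lies apart at 54.1 on the first component and at 3.24 on the first factor.

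Of the 15546 genes, 1950 were called at ZT4, which is 12.5%. Of these, 964 were higher in cKOt kidneys (6.2%) and 986 were lower (6.34%). Most differences were small, with a median size of 0.38 on the log2 scale, 1383 (8.9%) were at least 1.2-fold (681 higher, 4.38%, and 702 lower, 4.52%), and 122 genes rose (0.785%) and 130 fell (0.836%) by at least 2-fold. The 5 cKOt values lay wholly above the 5 control values at 873 genes (5.62%) and wholly below them at 851 (5.47%), together 11.1% of genes. Without cKOt replicate 5, 1860 genes were called, of which 1733 were among the 1950. Without the RUVs factors 2431 genes were called, of which 1430 were shared. Gene lists are given as counts of members called, to be read beside the 6.2% of all genes called higher and the 6.34% called lower. Where edgeR called none of a list in a direction, at most 1 member in that direction passed an unadjusted p of 0.05. In those cases DESeq2 and limma called none either, save 1 lower NAD consumer by DESeq2 and 1 higher organic ion transporter by limma.

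The clock was described first, as 28 genes in 5 groups by role, chosen with earlier results of these data known. Of them 10 were called higher in cKOt kidneys and 12 lower, where 12.5% of all genes were called. The promoters of the genes named in this paragraph are shown because they carry the elements through which the loop is known to act. They are RefSeq windows of GRCm38.p6 on the strand of the gene, from 250 bases before the start of the transcript to 50 after it, with matches in capitals. The Ciart window (chr3:95882179-95882478, minus strand) held 3 E-boxes (CACGTG) at 116, 58 and 44 bases before the start, and the Cry1 window (chr10:85185005-85185304, minus strand) held 1 at 60 bases. The Per3 window (chr4:151044616-151044915, minus strand) held 2 D-boxes (TTANGTAA) at 205 and 158 bases. The Arntl window shown (chr7:113207261-113207560, plus strand) held 1 ROR and REV-ERB element (TAGGTCA) 30 bases after the start. The other Arntl window (chr7:113207215-113207514) held none.
Ciart: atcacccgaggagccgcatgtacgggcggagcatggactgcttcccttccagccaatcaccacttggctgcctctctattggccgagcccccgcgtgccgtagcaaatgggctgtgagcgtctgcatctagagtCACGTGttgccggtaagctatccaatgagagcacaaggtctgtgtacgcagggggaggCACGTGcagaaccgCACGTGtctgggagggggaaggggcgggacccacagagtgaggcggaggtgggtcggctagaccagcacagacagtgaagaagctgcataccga
Cry1: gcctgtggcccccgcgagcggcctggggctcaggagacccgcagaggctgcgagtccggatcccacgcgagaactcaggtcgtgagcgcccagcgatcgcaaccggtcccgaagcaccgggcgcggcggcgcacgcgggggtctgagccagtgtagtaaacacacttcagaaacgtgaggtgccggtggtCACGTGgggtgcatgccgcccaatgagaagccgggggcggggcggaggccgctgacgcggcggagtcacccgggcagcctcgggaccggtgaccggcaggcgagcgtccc
Per3: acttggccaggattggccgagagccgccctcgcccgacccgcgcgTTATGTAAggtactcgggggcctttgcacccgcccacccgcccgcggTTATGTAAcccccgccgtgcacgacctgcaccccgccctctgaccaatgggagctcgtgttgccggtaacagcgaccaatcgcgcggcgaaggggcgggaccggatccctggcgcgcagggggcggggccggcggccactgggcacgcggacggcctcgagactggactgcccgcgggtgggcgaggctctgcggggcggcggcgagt
Arntl: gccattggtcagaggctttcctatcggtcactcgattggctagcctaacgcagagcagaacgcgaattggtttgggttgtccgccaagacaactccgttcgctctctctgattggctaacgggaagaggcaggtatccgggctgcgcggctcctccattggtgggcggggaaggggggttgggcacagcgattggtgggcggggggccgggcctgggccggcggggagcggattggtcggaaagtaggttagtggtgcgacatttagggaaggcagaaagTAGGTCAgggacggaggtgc

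Windows were found for 24 of the 28 genes, 32 windows in all. A gene is counted below where any of its windows held the motif. The percentages are shares of single windows, so the counts by gene and these shares are not in the same unit. Searched on both strands, the E-box was in the windows of 8 of these genes, among them 5 of the 11 that fell and 2 of the 9 that rose, and in 7.15% of all 32851 windows. The D-box was in 2 genes, Coq10b and Per3, both of which fell, and in 2.32% of all windows. The ROR and REV-ERB element was in Arntl, Leo1 and Nfil3, which were 3 of the 9 genes that rose, in none of the 11 that fell, and in 2.61% of all windows. A match is a run of letters and not a bound site, and the 3 motifs do not overlap one another in the windows shown.

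Of the 4 genes of the BMAL and CLOCK families, the activators of the loop, 3 rose and none fell. Arntl (ENSMUSG00000055116, chr7:113207465-113314126 in GRCm38) measured 11.2, 5.54, 5.55, 16.8 and 12.3 CPM in control mice 1 to 5 and 20.2, 21.3, 19.8, 20.7 and 17.4 CPM in cKOt mice 1 to 5. Every cKOt kidney was thus above every control kidney, and controls 2 and 3 had the lowest levels. The log2 fold change was 0.87 (SE 0.22, adjusted p = 0.00421), and 0.91 without cKOt replicate 5. The counts cover the whole gene, including exons that recombination leaves in place, so this level is no check of the deletion, and the genotypes are those of the labels. Controls varied through the day from 2.73 CPM at ZT8 to 48.4 CPM at ZT0, whereas cKOt means lay between 17.4 and 24.4 CPM.

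Npas2, the partner that can stand in for CLOCK, differed most within the group. Its levels were 4.53, 2.33, 2.36, 9.72 and 6.48 CPM in controls and 44.0, 57.8, 44.0, 48.1 and 43.7 CPM in cKOt mice. The ranges lay far apart, and control 4 was again the highest control. The log2 fold change was 3.27 (SE 0.235, adjusted p = 2.45e-16). Clock rose from 87.3, 93.0, 68.1, 86.6 and 103 CPM to 119, 111, 142, 122 and 184 CPM, a log2 fold change of 0.43 (SE 0.099, adjusted p = 0.00148). The highest Clock value was that of cKOt replicate 5, and the log2 fold change was 0.40 without it.

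Arntl2, the gene of BMAL2, did not pass the test (log2 fold change 0.09, adjusted p = 0.812). Rora, a receptor that activates through the element shared with the REV-ERBs, did not pass it either (0.04, adjusted p = 0.89).

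Among the period and cryptochrome genes, which close the loop as repressors, the cryptochromes were higher and Per3 was lower in cKOt kidneys. Cry1 was barely present in controls, at 1.75, 3.05, 2.97, 2.53 and 3.47 CPM, and stood at 27.4, 29.8, 27.0, 27.5 and 27.9 CPM in cKOt mice. The cKOt kidneys differed little among themselves and lay well above the highest control. This was a 10.0-fold difference (log2 fold change 3.33, SE 0.132, adjusted p = 3.81e-27), in a gene whose window above holds an E-box. Cry2 rose from 28.1, 24.1, 25.8, 26.1 and 27.0 CPM to 41.5, 48.3, 38.5, 46.1 and 36.6 CPM (log2 fold change 0.78, SE 0.0672, adjusted p = 2.11e-13).

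Per3 went the other way, from 41.4, 57.6, 47.7, 31.7 and 37.7 CPM to 9.65, 8.37, 9.70, 10.8 and 11.0 CPM. Every cKOt kidney was below the lowest control (log2 fold change -2.10, SE 0.166, adjusted p = 9.75e-15). Per1 measured 27.1, 25.2, 19.7, 11.7 and 18.6 CPM in controls and 12.3, 15.3, 13.3, 11.0 and 6.49 CPM in cKOt mice. The groups overlapped through control 4, and the log2 fold change of -0.57 did not pass the test (adjusted p = 0.104). It passed without that control (-0.72, adjusted p = 0.0344) and without the RUVs factors (-0.81, adjusted p = 0.0199). Per2 overlapped as well, at 14.7 to 42.1 CPM in controls and 30.4 to 38.2 CPM in cKOt mice (log2 fold change 0.20, adjusted p = 0.495).

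The REV-ERB, DEC and CHRONO repressors fell, 4 of 5 of them. Nr1d1, the gene of REV-ERB alpha, stood at 63.9, 74.2, 79.3, 84.2 and 70.8 CPM in controls and at 14.7, 8.47, 13.4, 15.3 and 8.28 CPM in cKOt mice (log2 fold change -2.38, SE 0.224, adjusted p = 3.80e-12). Its paralog Nr1d2 fell from 187, 238, 179, 169 and 170 CPM to 33.0, 30.9, 42.1, 41.1 and 56.1 CPM (log2 fold change -2.32, SE 0.147, adjusted p = 2.40e-18). For both receptors every cKOt kidney was well below the lowest control. An exon of Nr1d1 is overlapped by Thra on the opposite strand, which stranded counting keeps apart.

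Ciart, the gene of the repressor CHRONO, showed the largest fall of the clock genes. It measured 9.55, 16.2, 10.9, 4.12 and 7.62 CPM in controls and 0.254, 0.301, 0.564, 0.555 and 0.224 CPM in cKOt mice. The cKOt values rest on 4 to 11 counts a library, so their own differences are not resolved at this depth. The fall was 24.6-fold (log2 fold change -4.62, SE 0.396, adjusted p = 1.47e-13). The Ciart window held 3 E-boxes, those of Dbp, Nr1d1, Nr1d2 and Per3, which also fell, held none, and that of Cry1, which rose, held 1. A link of E-boxes to these changes was not tested. Bhlhe41, the gene of DEC2, overlapped between the groups and was called (log2 fold change -0.80, adjusted p = 0.0152). That call was lost without control 2 (-0.58, adjusted p = 0.124) or without cKOt replicate 4 (-0.64, adjusted p = 0.0808). Bhlhe40, the gene of DEC1, did not pass (log2 fold change -0.16, adjusted p = 0.569).

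**Figure D2:**
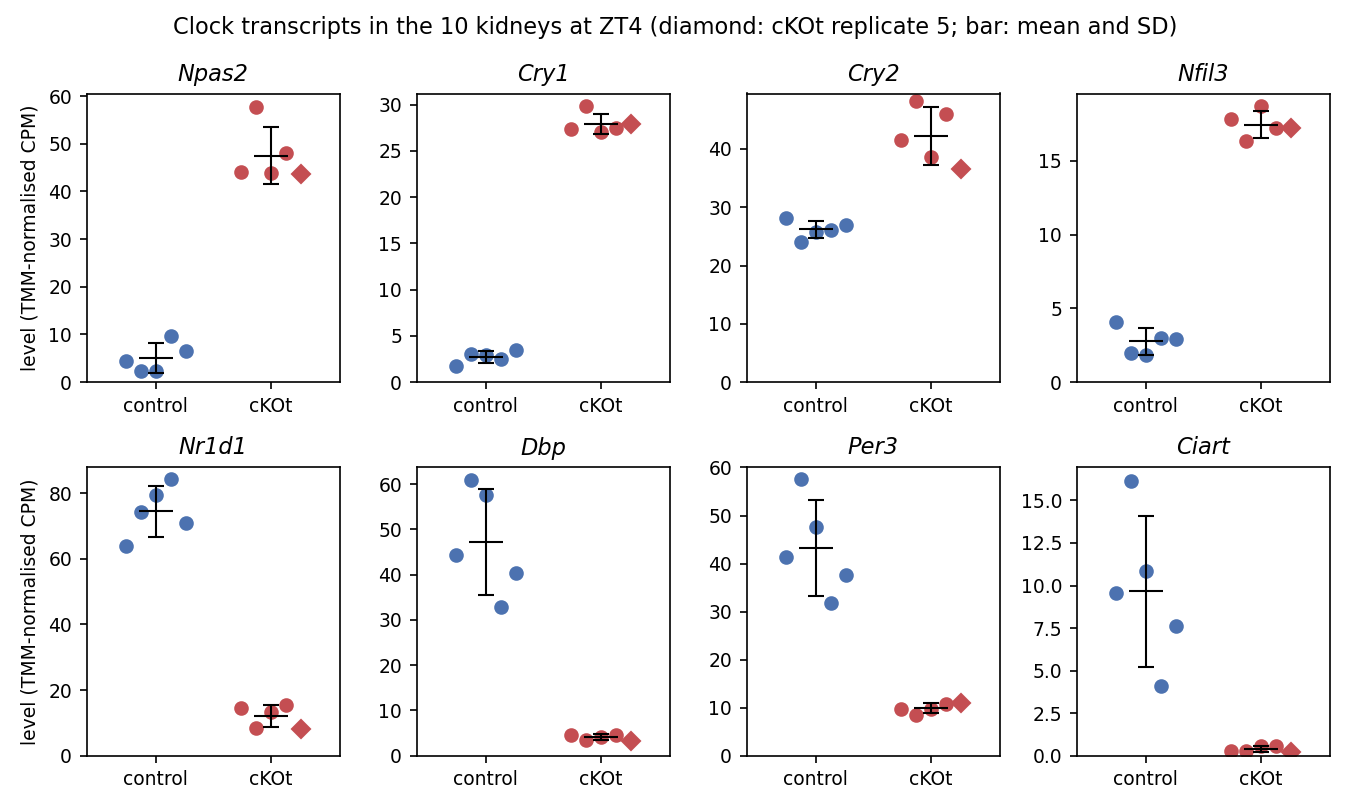
Levels of 8 clock transcripts in each ZT4 kidney (vertical axes, TMM-normalised CPM from 0; 1 point a mouse, black bars for the mean and SD of 5 mice, diamond for cKOt replicate 5). The cKOt values lie above all control values for Npas2, Cry1, Cry2 and Nfil3 and below all of them for Nr1d1, Dbp, Per3 and Ciart.

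The D-box factors were split by sign. Dbp, the PAR bZIP activator, fell from 44.4, 60.9, 57.6, 32.8 and 40.4 CPM to 4.67, 3.41, 4.16, 4.64 and 3.30 CPM, a 9.81-fold fall (log2 fold change -3.29, SE 0.213, adjusted p = 4.38e-18). Nfil3, the repressor at the same D-boxes, rose from 4.09, 1.99, 1.81, 2.97 and 2.95 CPM to 17.9, 16.3, 18.7, 17.2 and 17.2 CPM (log2 fold change 2.53, SE 0.371, adjusted p = 6.48e-07). Neither pair of ranges touched. Tef fell less, with 320 to 452 CPM in controls and 197 to 237 CPM in cKOt mice (log2 fold change -0.87, adjusted p = 5.32e-10). Hlf overlapped and did not pass (log2 fold change 0.07, adjusted p = 0.639).

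All 8 output genes of the list, which are known followers of the clock, were called, 3 higher and 5 lower. The list was chosen with earlier results of these data known, so this count is a description and no test. Coq10b, a coenzyme Q binding protein, fell by 1.15 on the log2 scale, with 42.8 to 86.1 CPM in controls and 24.7 to 33.3 CPM in cKOt mice. Por, the reductase that feeds electrons to microsomal cytochromes P450, fell by 0.67, and Wee1, a kinase that holds back mitosis, fell by 0.66. Tspan4 fell by 0.42. None of these overlapped. Lonrf3 rose by 1.66 and Leo1, a subunit of the PAF1 elongation complex, by 0.79, again without overlap. Usp2 and Tsc22d3, the gene of GILZ, overlapped, and their calls each rested on 1 control. Usp2 (log2 fold change -0.36, adjusted p = 0.0103) was lost without control 2 (-0.26, adjusted p = 0.0916), and Tsc22d3 (0.53, adjusted p = 0.00963) without control 4 (0.41, adjusted p = 0.0562).

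**Figure D3:**
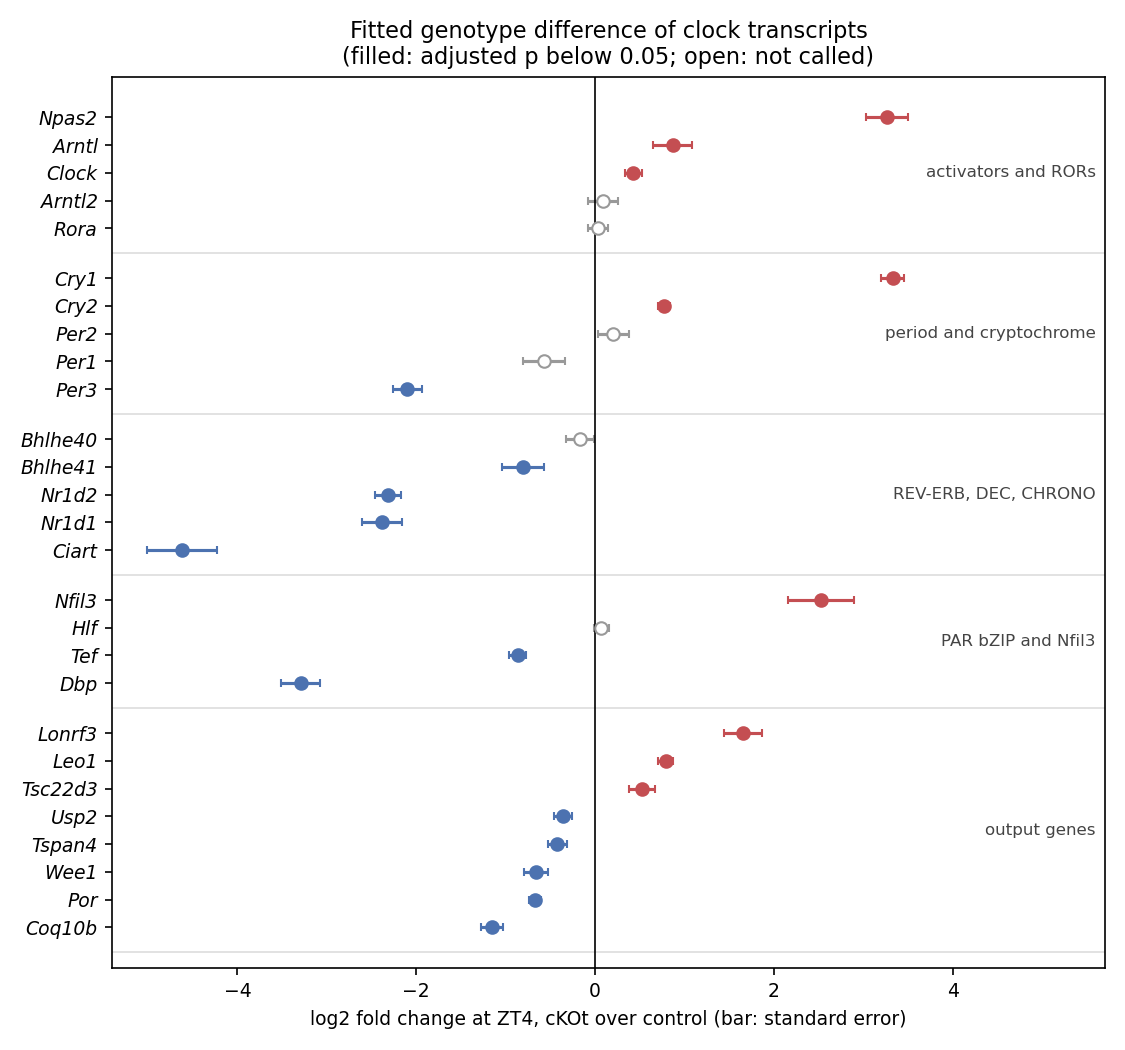
Fitted log2 fold change of 27 of the 28 clock genes at ZT4, cKOt over control (horizontal axis, bars for the standard error), grouped by role, with filled points for adjusted p below 0.05. The extremes are Cry1 at 3.33 and Ciart at -4.62, and the open points near 0 include Rora, Hlf and Arntl2.

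The clock genes also differed in how much mice of a group varied. The median coefficient of variation over the 28 genes was 24.2% in controls and 12.2% in cKOt mice, and 20 of the 28 genes varied more in controls. Over 13585 genes with a mean of at least 1 CPM in both groups, 33.5% varied more in controls, with medians of 9.73% and 13.2%. Without cKOt replicate 5, 23 of the 28 and 58.1% of all genes varied more in controls, and the cKOt medians were 11.3% and 8.56%. Control 2 was the highest control for 15 of the 28 genes and control 4 the lowest for 15. Control 2 was highest for Ciart, Dbp and Per3, and control 4 was highest for Arntl, Npas2 and Nr1d1.

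The question of what ZT4 adds was addressed by setting the genotype difference at ZT4 against the mean of the differences at the other 5 times. This contrast called 12 of 15546 genes (0.0772%), 4 above (0.0257%) and 8 below (0.0515%). Cry1 differed by 2.12 more at ZT4 on the log2 scale (SE 0.143, adjusted p = 1.62e-16). Control kidneys had their lowest mean of the day for it at ZT4, with 2.75 CPM against 23.1 CPM at ZT20. In cKOt kidneys the means of the 6 times lay between 27.0 and 35.1 CPM.

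Dbp stood out on the other side, with a difference of -3.29 at ZT4 and of -1.08 on average at the other times (adjusted p = 7.48e-09 for their difference of -2.22). Its control mean was 47.2 CPM at ZT4, 66.8 CPM at ZT8 and 2.15 CPM at ZT20. Ciart (-2.39), Nr1d1 (-1.21) and Per3 (-0.91) were called on the same side. Nr1d1 is the one of these whose control mean was highest at ZT4, at 74.5 CPM, against 4.16 CPM at ZT20. Nfil3 also had its lowest control mean at ZT4 (2.76 CPM) but was not called in this contrast, and neither was Npas2, whose cKOt means lay between 42.6 and 51.0 CPM at all times.

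The other genes of the contrast were no clock genes of the list. Rhobtb1, which encodes a BTB domain protein, rose at ZT4 from 45.2, 38.0, 40.7, 51.5 and 44.4 CPM to 121, 128, 118, 121 and 117 CPM, by 0.74 more than at the other times (adjusted p = 1.91e-08). Ypel2 rose from a mean of 17.0 to 73.5 CPM, by 0.73 more. Narf fell from 60.7 to 42.7 CPM, by 0.39 more on the log2 scale than at the other times. Tfcp2 (-0.31), Ngfr (-1.20) and Gm13936 (-2.20) had negative differences. Gm13936 was under 2 CPM in all 10 mice and was not called at ZT4 itself, with a mean difference of 2.62 at the other times. Tfcp2, Ngfr and Gm13936 were outside the rule for named genes and are named with their values known.

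Leaving out 1 mouse changed this short list. Cry1, Dbp and Rhobtb1 were called in all 10 fits that each lacked 1 ZT4 mouse. Per3 and Ciart were called in 7, failing without control 2 (adjusted p = 0.102 and 0.0747), cKOt 1 (0.0508 and 0.0683) or cKOt 2 (0.0727 for both). Nr1d1 was called in 6, Narf in 5, Tfcp2 in 4, Ngfr in 3, and Ypel2 and Gm13936 in 2. The number of genes called was 7 without control 2, control 3 or cKOt 3, 4 without cKOt 1 or cKOt 2, and 13 without cKOt 5. The sign of all 12 genes was the same in each of 20 alternative fits.

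**Figure D4:**
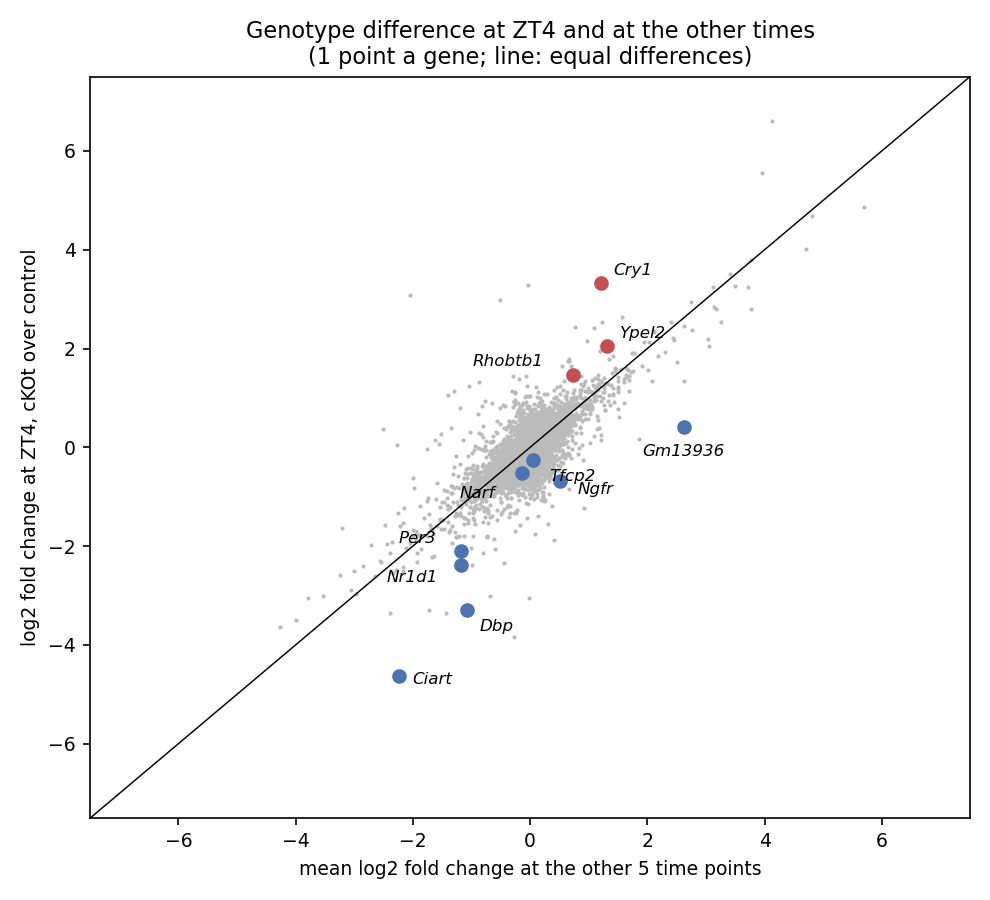
Log2 fold change at ZT4 (vertical axis) against the mean log2 fold change at the other 5 time points (horizontal axis), cKOt over control, 1 point a gene, with the line of equal differences. Of the 12 called genes 11 are named, 3 above the line in red, among them Cry1 and Rhobtb1, and 8 below it in blue, among them Dbp and Ciart.

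The largest differences outside the clock lists are given by gene, and whether these genes share roles was not tested. Vmn1r32, a vomeronasal receptor gene (chr6:66552180-66560096), had 3 counts in all 5 controls together and 484 in the cKOt mice, a ratio of 153 with an exact 95% interval of 52.2 to 747 that covers counting error only. Fhad1 had 22 and 588 counts. Slc7a12, an amino acid transporter, rose from 2.29, 2.21, 1.81, 1.92 and 0.725 CPM to 24.7, 25.0, 45.4, 17.5 and 63.5 CPM (log2 fold change 4.02, SE 0.408, adjusted p = 4.28e-11). Its cKOt values varied widely, and the log2 fold change was 3.93 without cKOt replicate 5, the highest of them.

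Loxl4, a lysyl oxidase that cross-links matrix, rose, with 2.55 to 5.23 CPM in controls and 31.7 to 38.3 CPM in cKOt mice (log2 fold change 3.51, adjusted p = 2.93e-24). The water channel Aqp8 rose by 3.24 and the collagen chain Col6a6 by 2.95 on the log2 scale, both with separate ranges. On the lower side, the cytochrome P450 gene Cyp2a5 fell from 92.8, 104, 143, 74.9 and 53.9 CPM to 9.70, 5.76, 8.06, 6.91 and 5.09 CPM (log2 fold change -3.63, SE 0.304, adjusted p = 6.18e-14). Its near copy Cyp2a4 fell by 2.88, from 493 to 66.4 CPM, and reads may be split unevenly between these paralogs. Angptl7 fell by 3.01, Hrg, a plasma glycoprotein gene, by 2.97 and Ctxn3 by 2.47, all with separate ranges.

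Fuel use was described by lists of enzymes and carriers. Carnitine carries long fatty acids across the mitochondrial membrane, and its shuttle fell in 4 of the 5 genes measured, where 6.34% of all genes fell. Slc25a20, the carrier of the inner membrane, fell from 48.2, 58.5, 48.8, 54.9 and 45.3 CPM to 32.3, 30.4, 32.4, 33.4 and 35.6 CPM (log2 fold change -0.60, SE 0.117, adjusted p = 0.000149). Cpt2 fell by 0.40, Crat by 0.35 and Cpt1a, the rate-limiting transferase, by 0.29, and none of the 4 overlapped. The median of the list was -0.35, against 0.0042 over all genes, and 4 of the 5 fell also without cKOt replicate 5 and without the RUVs factors.

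Carnitine itself is made by a short pathway and taken back from the urine by OCTN transporters. Slc22a5, the gene of OCTN2, fell from 266, 338, 258, 287 and 235 CPM to 137, 138, 166, 156 and 191 CPM. The highest cKOt kidney, replicate 5, was still below the lowest control (log2 fold change -0.85, SE 0.105, adjusted p = 1.00e-08, and -0.90 without that mouse). Slc22a4, the gene of OCTN1, fell from a mean of 79.7 to 60.3 CPM (log2 fold change -0.48). Aldh9a1, which oxidises an intermediate of carnitine synthesis, fell from 569 to 371 CPM (log2 fold change -0.62, SE 0.0544, adjusted p = 3.25e-13). Of the 6 genes of this list 3 fell and none rose. Bbox1, the last enzyme of carnitine synthesis, had the largest log2 fold change of the list, at 1.42, 0.831, 0.933, 0.494 and 1.35 CPM in controls and 1.62, 1.40, 2.98, 2.07 and 2.80 CPM in cKOt mice. The ranges overlapped slightly and it did not pass (0.91, adjusted p = 0.0642), but it was called higher without the RUVs factors (1.10, adjusted p = 0.0160).

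In mitochondrial β-oxidation 7 of 14 genes fell and none rose, with a median of -0.14. Acadl, the long-chain acyl-CoA dehydrogenase, fell furthest, from 398, 454, 406, 431 and 393 CPM to 255, 268, 274, 250 and 265 CPM (log2 fold change -0.74, SE 0.0662, adjusted p = 7.57e-13). The other 6, Etfa, Etfb, Etfdh, Decr1, Acads and Acadvl, had smaller log2 fold changes. The count of 7 was 5 without cKOt replicate 5 and 4 without the RUVs factors. It was 2 without both of these, and 3 with the 10 ZT4 mice alone. Ranges were separate, and lower in cKOt mice, for 3 of the 14. In peroxisomal oxidation 7 of 11 genes fell and none rose. Acaa1b, a peroxisomal thiolase, fell from 149, 189, 209, 155 and 130 CPM to 67.9, 75.7, 77.2, 73.0 and 40.6 CPM (log2 fold change -1.03, SE 0.156, adjusted p = 1.52e-06). Replicate 5 of the cKOt mice was lowest, and 6 of the 11 genes fell without it. The count was 4 with the 10 ZT4 mice alone, and 4 without both replicate 5 and the RUVs factors. Ranges were separate, and lower in cKOt mice, for 3 of the 11.

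Fatty acid uptake and activation went both ways, with 3 of 13 genes higher and 6 lower. Fabp3, a fatty acid binding protein, fell by 0.66 and Slc27a2, a transporter and ligase, by 0.37, both with separate ranges. The ligases Acsl1 and Acsl5 rose by 0.54 and 0.32. Cd36, a fatty acid translocase, was called with overlap (log2 fold change -0.42, adjusted p = 0.000676) and was lost without the RUVs factors (-0.24, adjusted p = 0.143), where 3 genes of the list fell and 3 rose.

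Ppard, the gene of the nuclear receptor PPAR delta, was the largest change of the fuel lists. It stood at 15.7, 11.5, 13.0, 27.1 and 16.6 CPM in controls and at 98.1, 110, 62.2, 87.8 and 37.9 CPM in cKOt mice. The lowest cKOt value was that of replicate 5, still above all controls (log2 fold change 2.53, SE 0.211, adjusted p = 5.42e-14, and 2.56 without it). Ppara, the receptor best known for fatty acid oxidation, did not pass (log2 fold change -0.16, adjusted p = 0.352). Of 10 genes known as PPAR targets none rose and 4 fell. Cyp4a10, a fatty acid hydroxylase, fell from 204, 469, 402, 269 and 186 CPM to 96.1, 157, 162, 104 and 140 CPM (log2 fold change -1.08, SE 0.284, adjusted p = 0.00587).

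Of 19 genes around complex II and the tricarboxylic acid cycle none rose and 3 fell, where 6.34% of all genes fell. The median of the list was -0.03. Sdha, the catalytic subunit of complex II, was 1033 to 1133 CPM in controls and 1139 to 1228 CPM in cKOt mice. These ranges do not overlap, yet the fitted log2 fold change of 0.10 did not pass the test (adjusted p = 0.171). It passed without the RUVs factors (0.15, adjusted p = 0.0383) and with batch in their place (0.14, adjusted p = 0.0295).

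For NAD, 1 of 8 salvage genes rose, 1 fell, and none of 11 genes of NAD consumers was called by edgeR, with 1 at an unadjusted p under 0.05, while DESeq2 called 1 lower and limma none. Nampt, the rate-limiting enzyme of salvage, measured 203, 206, 186, 176 and 196 CPM in controls and 155, 153, 163, 158 and 194 CPM in cKOt mice. Replicate 5 alone reached the controls. The log2 fold change was -0.40 (adjusted p = 6.39e-07), but -0.23 (adjusted p = 0.0683) without the RUVs factors and -0.24 (adjusted p = 0.0743) within the 4 pairs of mice that share a batch of the study's sample sheet, which does not say what the batches are. Nt5e, a nucleotidase of the cell surface, rose from a mean of 188 to 350 CPM (log2 fold change 0.78). Nmrk1 did not pass (-0.13, adjusted p = 0.583). Of 9 genes of the pathway from tryptophan 3 rose and 1 fell, with Kmo at 145 to 189 CPM in controls and 231 to 266 CPM in cKOt mice (log2 fold change 0.45, adjusted p = 4.63e-08).

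**Figure D5:**
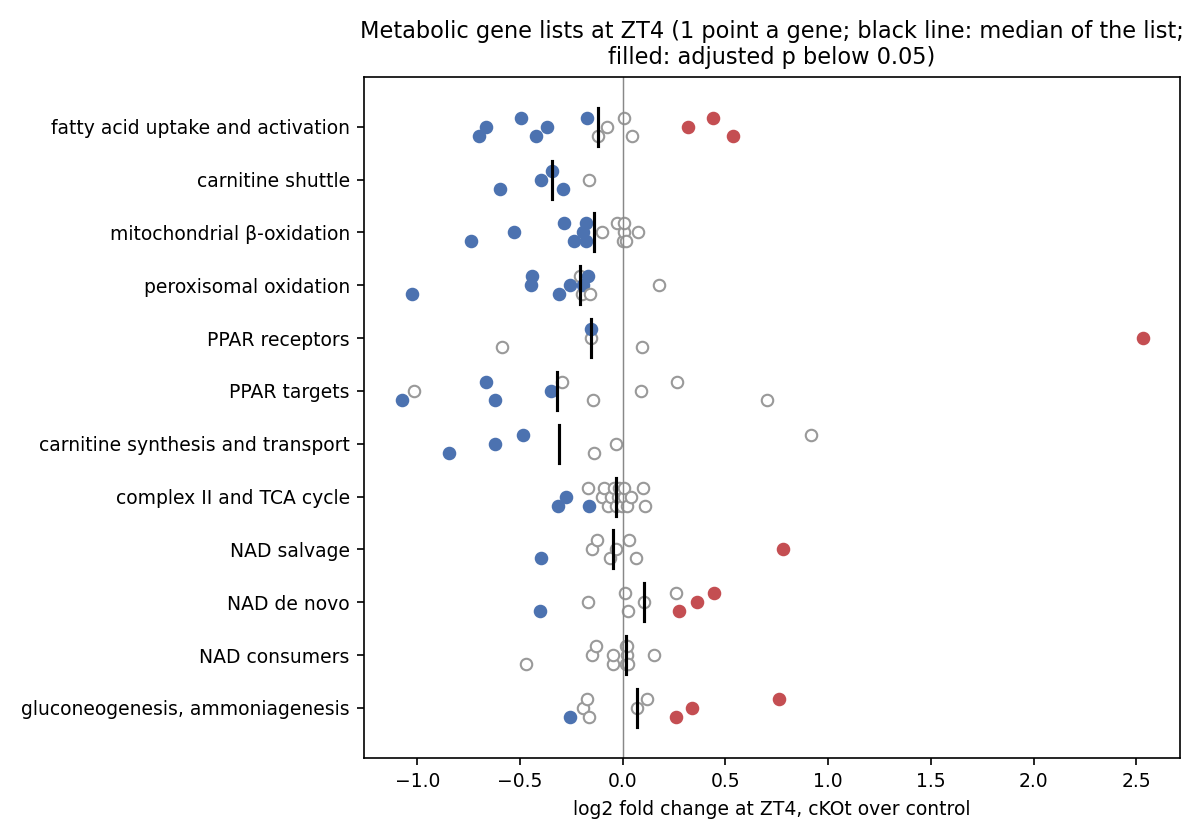
Log2 fold change at ZT4, cKOt over control (horizontal axis), of each gene in 12 metabolic lists, with filled points for adjusted p below 0.05 and a black line at the median of each list. The carnitine shuttle has its median at -0.35, and Ppard is the point at 2.53.

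Gluconeogenesis and ammonia production had 3 of 9 genes higher and 1 lower. G6pc, the last enzyme of glucose output, rose from 426, 384, 543, 524 and 333 CPM to 815, 803, 874, 735 and 726 CPM (log2 fold change 0.76, SE 0.163, adjusted p = 0.000521). Every cKOt kidney was above every control. Fbp1, fructose bisphosphatase, fell by 0.26.

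Transport along the tubule was touched in places. Over all genes 6.2% rose, 6.34% fell, and 5.62% and 5.47% had cKOt values wholly above and wholly below the controls. Of 17 sodium transport genes 4 rose and 4 fell. Slc9a3, the gene of the proximal exchanger NHE3, fell by 0.39 on the log2 scale, without overlap of the groups. The 4 that rose were 2 without cKOt replicate 5, and 1 with the 10 ZT4 mice alone. Of 7 water and urea channels 2 fell, and Aqp3 fell by 0.34. Of 14 genes of glucose, phosphate and calcium handling 6 rose and 2 fell, with 1 in each direction set apart without overlap. These counts were 4 and 2 without cKOt replicate 5, 3 and 1 without the RUVs factors, and 1 and 1 with the 10 ZT4 mice alone. The exchanger Slc8a1 rose by 0.70, and Cyp27b1, which activates vitamin D, fell from 4.26, 6.09, 9.11, 2.75 and 3.57 CPM to 0.914, 1.55, 1.59, 0.656 and 0.615 CPM (log2 fold change -2.04, SE 0.485, adjusted p = 0.00207). Of 11 organic ion transporters 3 fell, led by Slc22a8, the gene of OAT3, from a mean of 338 to 180 CPM (log2 fold change -0.88), and 1 of the 11 fell in the fit of the 10 ZT4 mice alone.

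Markers of the cell types of the kidney and its surroundings were read in the same fit. None of the markers tested for podocytes (5), endothelium (5), distal tubule (3), lymphocytes (3), blood (2), adipocytes (4), adrenal (1) or urothelium (4) was called by edgeR, DESeq2 or limma, with 1, of the distal tubule, at an unadjusted p under 0.05, and 1 distal marker was called higher without the RUVs factors. The adipocyte and blood markers had medians of -0.97 and -0.83, at summed levels of no more than 4.72 and 1.37 CPM in any mouse. The summed podocyte level was 340 to 419 CPM in controls and 328 to 382 CPM in cKOt mice. The markers of the proximal tubule summed to 9895 to 11022 CPM in controls and 8852 to 10690 CPM in cKOt mice. Of the proximal markers 2 of 6 fell, with Slc13a3, a dicarboxylate carrier, by 0.59, and Umod of the thick limb fell by 0.41 with overlap. The 3 thick limb markers summed to 3403 to 4940 CPM in controls and 3218 to 3853 CPM in cKOt mice. Of 8 collecting duct markers 2 fell, where 6.34% of all genes fell.

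The 6 stromal markers summed to 182 to 248 CPM in controls and 114 to 146 CPM in cKOt mice. Of the 6, 5 had separate ranges and 2 fell, where 5.47% of all genes lay wholly lower and 6.34% fell. Col1a1, a fibrillar collagen, went from a mean of 12.1 to 4.79 CPM (log2 fold change -0.73, adjusted p = 0.00453). Without the RUVs factors 4 of the 6 fell, with batch in their place 5, and Col1a1 had a log2 fold change of -1.34 without them. The 9 macrophage markers summed to 351 to 448 and 197 to 327 CPM, and 6 had separate ranges and 4 fell. The lowest sum was that of cKOt replicate 5, without which 2 fell, and H2-Ab1, an antigen-presenting molecule, had a log2 fold change of -0.49 with it and -0.43 without it. The part of these cells in the other results was not tested.

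The 4 batches that hold both genotypes at ZT4 gave 1 pair of mice each. Of the 80 called genes named in the text, 77 had the fitted direction in all 4 pairs, and Acsl1, Ngfr and Usp2 had it in fewer. The mice of these pairs also gave the calls, so this agreement in direction is no separate check. A fit on these 8 mice with batch as a term called 1077 genes, of which 857 were among the 1950.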

How the data were processed

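RNA from frozen pieces of kidney of 60 mice, selected by the study, had been sequenced from stranded poly(A) libraries as single reads. Per the labels, the authors used bcl2fastq, cutadapt 1.8, STAR 2.5.3a, HTSeq 0.9.1 and the GRCm38 build, and the deposited values are raw counts of reads per Ensembl gene. At ZT4, reads outside genes were 7.58 to 10.6% and ambiguous reads 0.953 to 1.20%; both were left out. Symbols and positions came from GENCODE M21.

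In R 4.3.3, 15546 of 55335 genes were kept, namely those that reached 1 CPM in 1 or more of the 60 libraries. Counts were scaled by TMM (factors 0.968 to 1.04 at ZT4) and fitted with edgeR 4.0.16 (quasi-likelihood) with 12 genotype and time groups and 2 RUVs factors, written anew, as covariates. Contrasts were cKOt minus control at ZT4, and this difference minus the mean of the other 5. Alternatives used DESeq2 1.42.0, limma 3.58.1, other filters, scalings and covariates, and left out single mice. The script was tested on simulated data.

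Replicate numbers did not pair the mice: same-numbered deviations correlated at -0.185 to 0.105. Same-batch mice correlated at 0.084 on average. The squared difference of any 2 libraries of a group was at least 5.54 times sampling noise, so none was treated as a repeat deposit of another; that they are separate mice comes from the study's methods. Members, gene lists and tests were chosen with earlier results of these data known. Named genes were the clock lists, the 8 largest changes in each direction with separate ranges and at least 5 CPM, up to 4 called members of each other list, members named by the study, and the 5 of each sign with the lowest p in the second contrast; a choice of these is given, and some genes are not reported here. Exons of 26 of the 91 named genes overlap another gene on the opposite strand, and none on the same strand.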

Additional observations from a re-analysis of the deposited data

Results flagged for a closer look

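Of 184 groups of 5 values, 10 held a value set apart from the other 4 beyond Dixon's 95% limit. The groups were 1 for each named gene and genotype, and the first RUVs factor in each genotype. That factor passed the limit in neither genotype, so the 3.24 of cKOt replicate 5 was not flagged by this rule. Chance alone sets apart about 1 group in 20. The values were not left out.

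Of these, 6 belonged to cKOt replicate 5, the library that stood apart as a whole. It was low for Acaa1b at 40.6 CPM, Cyp4b1 at 1350 CPM and H2-Ab1 at 17.4 CPM. It was high for Nampt at 194 CPM, Vmn1r32 at 7.66 CPM and Wee1 at 13.1 CPM. Control 2 was high for Nr1d2 at 238 CPM and Wee1 at 25.2 CPM. Control 3 was high for Fgg at 19.9 CPM. Replicate 1 of the cKOt mice was high for Alb at 2.64 CPM.

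Of the 12 genes whose genotype difference at ZT4 differed from the mean of the other 5 times, by the test of that difference itself, 11 are given. On the log2 scale the values above 0 were 2.12 for Cry1, 0.74 for Rhobtb1 and 0.73 for Ypel2. The values below 0 were -2.22 for Dbp, -2.39 for Ciart, -0.91 for Per3, -1.21 for Nr1d1, -0.39 for Narf, -0.31 for Tfcp2, -1.20 for Ngfr and -2.20 for Gm13936.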

How the results depend on the processing

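The main count of 1950 genes at ZT4 (964 higher) became 3091 (1720 higher) with batch in place of the RUVs factors, and the contrast with the other times went from 12 to 25 genes. Within the 4 same-batch pairs it was 1077 (446 higher, 631 lower). With each mouse left out in turn it was 1650 to 1906, with 813 to 972 higher and 824 to 939 lower, the other contrast gave 4 to 13, and 1887 to 2443 genes had separate ranges. With the replicate number as a block 1918 genes were called and 10 in the other contrast, where Ypel2 (adjusted p = 0.0581) and Gm13936 (0.0802) were lost; no named call at ZT4 changed. DESeq2 called 2041 and limma 1943. The 10 ZT4 mice alone gave 1552, of which 1163 were among the 1950. Of the named calls 4 were lost in that fit, those of Usp2, Tfcp2, Nampt and Cd36. The share of higher calls was 49.4%, and 41.4 to 55.6% under the alternatives. Reversed signs were found only among genes that did not pass: Nmrk1 at 0.031 without the factors, 0.012 with batch, 0.034 with 10 mice and 0.0024 within pairs, Arntl2 at -0.021 without control 1 (0.20 at most with 1 mouse left out), and Rora at -0.0024 without control 3 and -0.010 without cKOt 4 (0.11 at most). The cause of these changes was not tested.

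At 18013474 counts or more a library, genes under about 1 CPM, such as Ciart in cKOt mice, rest on few counts. The groups hold 5 mice chosen by the study, the cKOt library of replicate 5 stands apart, and kidney RNA mixes tubule cells with cells that kept Bmal1.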

Other observations

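Genes of secreted plasma proteins that the liver is known for were among those that moved. The fibrinogen chains rose together. Fgg was at 7.64, 7.47, 19.9, 7.97 and 4.51 CPM in controls and 47.1, 58.9, 79.3, 73.3 and 58.4 CPM in cKOt mice (log2 fold change 2.80, SE 0.232, adjusted p = 4.50e-14). Fga rose from 16.2 to 30.9 CPM in controls to 84.6 to 129 CPM, and Fgb from 0.414 to 2.36 CPM to 3.71 to 6.72 CPM, with no overlap. Alb, albumin, fell instead, from 6.28 to 12.2 CPM to 1.06 to 2.64 CPM (log2 fold change -2.50, adjusted p = 3.32e-09). Of the 6 genes of this list 3 rose and 1 fell, and the same counts held without cKOt replicate 5.

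Of 7 genes known to respond to androgen in the mouse kidney 1 rose and 5 fell, and 2 and 2 without the RUVs factors. Over all genes 6.2% rose and 6.34% fell in the main fit. Odc1, the first enzyme of polyamine synthesis, was at 1672 to 3073 CPM in controls and 1022 to 1738 CPM in cKOt mice (log2 fold change -0.87, adjusted p = 1.27e-05), and Cyp4b1 fell by 0.69. Of 9 genes responsive to glucocorticoid 2 rose and 2 fell. Cdkn1a, the cell cycle inhibitor p21, rose from 5.84, 3.99, 3.40, 4.34 and 4.56 CPM to 16.6, 22.4, 10.1, 11.9 and 11.7 CPM (log2 fold change 1.92, SE 0.24, adjusted p = 1.43e-08), and Zbtb16 rose by 1.79, while the metallothionein Mt1 fell by 0.60. Of 10 cell cycle genes 2 rose and 1 fell, and 1 and 1 without cKOt replicate 5 and none and 1 without the RUVs factors. Ccnd1, cyclin D1, fell from 165, 162, 190, 183 and 207 CPM to 83.0, 79.3, 71.8, 72.7 and 65.6 CPM (log2 fold change -1.20, SE 0.109, adjusted p = 1.19e-12).

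The counts that follow stand beside 6.2% of all genes that rose, 6.34% that fell and 5.47% with separate, lower ranges in cKOt mice. Of 13 heat shock and cold genes 4 fell and none rose, and 1 fell without the RUVs factors, with Hsph1 at -0.71. Of 13 genes of protein folding in the endoplasmic reticulum 3 fell, led by Herpud1 at -0.67, and 2 without cKOt replicate 5. Of 8 NRF2 targets 2 fell, with Hmox1, heme oxygenase, at -0.83. Of 14 genes of sterol and fatty acid synthesis 2 rose and 4 fell. Separate, lower ranges were found for no heat shock or cold gene, 1 folding gene, 2 NRF2 targets and 2 synthesis genes. Separate, higher ranges were found for 2 synthesis genes and no gene of those other lists. Of 6 tubule injury genes 1 fell and none rose, 1 had separate, lower ranges, and none was called without the RUVs factors. With these factors none of 12 immediate early genes was called by edgeR, DESeq2 or limma, 1 was at an unadjusted p under 0.05 and 2 had separate, lower ranges in cKOt mice. In edgeR 2 fell without the factors, 2 with batch in their place and 3 with the 10 ZT4 mice alone, and the median of the list went from -0.15 to -0.42 without the factors.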
